A study of Mus musculus with 3 samples.

Results

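The genes described here mark the chambers of the heart or encode its hormones: Nppa, Nppb, Nr2f1, Nr2f2, Irx3, Irx4, Tbx3, Isl1 and Hopx. They were taken by gene symbol from the deposited tables, 9 genes of 54532, and 7 of the 9 had over 3 counts in at least 1 library, as did 18707 genes of the whole table. Irx4 and Isl1 had 0 counts in all 3 libraries and were not measured. The question was which chamber and hormone genes came on when fibroblasts from infarcted mouse hearts were pushed toward a cardiomyocyte fate with defined transcription factors.

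There were 3 RNA-seq libraries, 1 per condition. MICFs were fibroblasts cut from the infarct of Myh6-mCherry mice, 8 weeks old at surgery, 5 days after ligation of the left anterior descending artery, kept in culture for 4 weeks without virus. GMTMS-iCMs were such cells given Gata4, Mef2c, Tbx5, Myocd and Sall4 from doxycycline-inducible lentiviral vectors, and in GMTMM Mesp1 stood in place of Sall4. The labels carry 1 growth protocol for all 3 libraries, with doxycycline at 1 µg/ml in the induction medium, and do not say separately whether MICFs received it. After 4 weeks the iCMs were sorted for mCherry, a reporter that the Myh6 promoter drives, and 5 sorted samples were pooled per cocktail before RNA extraction. No sort of the MICFs is given in the sources used here, so sorting and reprogramming cannot be told apart. With 1 library per condition no difference has a replicate check, and none carries a p-value.

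Natriuretic peptides are hormones that heart muscle releases when it is stretched. Nppa encodes atrial natriuretic peptide, which is kept on in the adult atria and comes back in the stressed ventricle, and Nppb encodes brain natriuretic peptide, a marker of wall stress. Chamber identity is set by transcription factors: the orphan nuclear receptors Nr2f1 and Nr2f2 (COUP-TFI and COUP-TFII) act in atrial muscle, and Nr2f2 also in venous endothelium; the Iroquois factors Irx3 and Irx4 act in the ventricular conduction system and the ventricular muscle; Tbx3 keeps the conduction system from becoming working muscle; Isl1 marks second heart field progenitors and the sinus node; and Hopx is a small homeodomain protein without DNA binding that marks committed cardiomyocyte precursors.

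Where values of the libraries stand in a row, MICFs come first, then GMTMS-iCMs, then the library labelled GMTMM. The totals were 11861773, 10624118 and 11904484 counts, and a count of 0 allows up to 3 counts, or 0.252 to 0.282 CPM. Sall4 had 0, 1190 and 1060 counts and Mesp1 had 0 in all 3, so the factor counts went against the label of the last library, and it is named by that label only. The 8 cardiomyocyte markers summed to 1.61, 684 and 244 FPKM, which was 425-fold and 151-fold MICFs in the iCM libraries. In MICFs 5 of the 8 were at 3 counts or fewer, so the size of these folds is uncertain. Myh6, whose promoter drove the sort, had 0, 14098 and 5149 counts. All 8 fibroblast markers were present in MICFs, but so were all 7 macrophage markers, at a summed FPKM of 7531 against 1446 for the fibroblast markers. After the sort the macrophage sum was 15702 in GMTMS-iCMs and 7240 in the other iCM library. Lyz2 alone gave 6135, 11353 and 5495 FPKM of these sums. After quantile normalization 2 of the 7 macrophage markers were higher in GMTMS-iCMs than in MICFs by over 1 on the log2 scale (8.28% of all genes).

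Nppa and Nppb lie next to each other on chromosome 4, and both were listed at 0 in MICFs and counted in both iCM libraries. Their upstream sequence is shown because these were the only members at 0 in MICFs that were counted in the iCMs. Each sequence is the 250 bases before the RefSeq start site, on the plus strand of GRCm38.p6, chr4:148000472-148000721 for Nppa and chr4:147985650-147985899 for Nppb. Capitals mark the letters AGATAA or TGATAA (sites of the kind GATA factors read), AGGTGT (a T-box core) and TATAAA, on either strand.
Nppa: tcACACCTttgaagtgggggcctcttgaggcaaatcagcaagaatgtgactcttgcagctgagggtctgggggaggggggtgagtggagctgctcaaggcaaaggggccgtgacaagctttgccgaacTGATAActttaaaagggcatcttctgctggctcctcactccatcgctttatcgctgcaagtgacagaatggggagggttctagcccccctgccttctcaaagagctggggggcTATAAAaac
Nppb: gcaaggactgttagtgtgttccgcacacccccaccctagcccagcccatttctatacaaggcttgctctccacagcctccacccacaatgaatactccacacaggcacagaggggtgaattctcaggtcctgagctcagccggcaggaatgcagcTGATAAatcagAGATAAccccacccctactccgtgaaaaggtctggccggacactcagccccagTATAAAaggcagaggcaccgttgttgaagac
The Nppa stretch held TGATAA at -122 from the start site, AGGTGT on the minus strand at -248 and TATAAA at -9. The Nppb stretch held TGATAA at -95, AGATAA at -84 and TATAAA at -31, and no match overlapped another. The start of Nppb in the deposited tables lies within its stretch. Among 32851 such stretches of all genes, 7.94% held TGATAA, 9.99% AGATAA, 11.8% AGGTGT and 12.4% TATAAA. Of the other members with a RefSeq stretch (8 in all), Isl1 held TGATAA at -115, and Hopx held a CArG box, the element read by serum response factor, at -83 of one start site (1.47% of all stretches) and CACGTG at -86 of the other (6.02%). No member held a MEF2 box (2.92% of all stretches). These are matches of letters and say nothing of binding.

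Nppa (ENSMUSG00000041616, chromosome 4 from 148000722 to 148002079, plus strand, GRCm38) was counted in both iCM libraries and not in MICFs. It had 0, 30 and 52 counts. FPKM, the deposited level per gene length and scaled library size, was 0, 3.73 and 5.15. The gene was not detected in MICFs at this depth and of middle rank in the iCMs, above 58.5% and then 62.7% of measured genes. With the 0 of MICFs set to 3 counts, Nppa FPKM was 15.5-fold higher in GMTMS-iCMs and 21.4-fold higher in the library labelled GMTMM. The exact 95% intervals, which also take in the error of the iCM counts, began at 11.8 and 16.8. The iCM libraries did not differ from each other beyond counting error, with a ratio of GMTMS-iCMs to the library labelled GMTMM of 0.726 and an exact (Clopper-Pearson) 95% interval of 0.447 to 1.16. Intervals of ratios are of this kind, those of single levels are exact Poisson intervals, and both cover counting error only.

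Nppb (ENSMUSG00000029019, chromosome 4 from 147985788 to 147987205, plus strand) was likewise counted in the iCM libraries alone, at fewer counts. It had 0, 16 and 15 counts, which was an FPKM of 0, 2.21 and 1.64. With the 0 of MICFs set to 3 counts, that made it 8.26-fold higher in GMTMS-iCMs and 6.16-fold higher in the library labelled GMTMM. The exact intervals began at 5.97 and 4.42. The ratio between the iCM libraries was 1.34 (0.621 to 2.91), so neither was shown to be higher.

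Both peptide genes were low beside Myh6 of the same library, although not beside every contractile gene: Nppa FPKM was above that of Ttn, the giant sarcomere protein titin (3.05 and 0.359 in the iCM libraries). Per length, Nppa stood at 1.65% and 7.85% of Myh6 FPKM in the iCM libraries, and Nppb at 0.977% and 2.51%. Myh6 encodes the fast myosin heavy chain, and its FPKM was 226 and 65.5, so the higher percentage in the library labelled GMTMM went with a lower Myh6 level. Nppa FPKM was 1.69-fold and 3.13-fold that of Nppb. For Nppa, 61.5% of the exon bases also lie in exons of Gm13054, a gene on the opposite strand that had 1, 1 and 0 counts. Whether counting used strand, and how reads in shared bases were treated, is not given in the sources used here. Reads of Nppa and Gm13054 in those bases therefore cannot be told apart. If such reads were left out, the Nppa level and its ratios to other genes are too low, which was not tested. Nppb shares no exon base with another gene.

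Nr2f1 and Nr2f2 were lower in GMTMS-iCMs than in either other library. Nr2f2 (ENSMUSG00000030551, chromosome 7 from 70351944 to 70366735, minus strand) was the most abundant member in MICFs and had 840, 25 and 354 counts. Its FPKM was 6.77, 0.312 and 3.51. GMTMS-iCMs were thus far below the other libraries, 21.7-fold lower than MICFs (14.6 to 33.7) and 11.3-fold below the library labelled GMTMM (7.50 to 17.6). The library labelled GMTMM was itself 1.93-fold lower than MICFs (1.70 to 2.19), so all 3 libraries stood apart beyond counting error.

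Nr2f1 (ENSMUSG00000069171, chromosome 13 from 78188973 to 78199757, minus strand) had 138, 9 and 124 counts. In FPKM that was 1.88, 0.190 and 2.08. Only GMTMS-iCMs stood apart here. They were 9.90-fold lower than MICFs (5.06 to 22.1) and 11.0-fold lower than the library labelled GMTMM (5.59 to 24.5), whereas the library labelled GMTMM was 1.11-fold MICFs with an interval that held 1 (0.861 to 1.42). Nr2f2 FPKM was 3.59-fold that of Nr2f1 in MICFs and 1.64-fold and 1.69-fold in the iCM libraries.

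Endothelial, fibroblast and pericyte markers were also lower in GMTMS-iCMs. Against MICFs, the library labelled GMTMM had higher fibroblast and pericyte sums but a lower endothelial sum. There 3 of 8 endothelial markers were lower by over 1 on the log2 scale and 0 higher, with a median of -0.84. Only 1 of 8 fibroblast and 1 of 4 pericyte markers passed 1, both upward, with list medians of 0.39 and 0.75. Nr2f2 was lower in that library and Nr2f1 was not separated from MICFs. In GMTMS-iCMs all 8 endothelial markers were lower than in MICFs by over 1 on the log2 scale and their summed FPKM was 35.5-fold lower (447.9, 12.6 and 343.5). Of these, Cdh5, the cadherin of endothelial junctions, had 12354, 157 and 7239 counts, and none of the 8 was at 0 in any library. The 8 fibroblast markers summed to 1446, 219.3 and 2777 FPKM and the 4 pericyte markers to 81.6, 11.1 and 179.3, with none at 0. Relative to Cdh5, Nr2f2 FPKM was 3.31%, 7.76% and 2.38%, and relative to Pdgfra, a fibroblast receptor, it was 38.1%, 9.14% and 13.5%. The part of these cell types in the lower Nr2f1 and Nr2f2 was not tested, and in bulk RNA fewer cells of a type cannot be told apart from less RNA per cell.

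The 3 venous endothelial markers did not move as a group, with a summed FPKM of 45.3, 96.6 and 48.7. Ephb4, the venous ephrin receptor, had 1151, 94 and 567 counts, and Nrp2, a semaphorin receptor that macrophages also express, had 4776, 10380 and 5280. The Nr2f2 locus carries B130024G19Rik on the opposite strand, sharing 7.46% of Nr2f2 exon bases, with 70, 0 and 2 counts. A830082K12Rik, opposite Nr2f1 and sharing 2.42% of its exon bases, had 31, 3 and 18. Both partners had more counts in MICFs than in GMTMS-iCMs, and the 0 and 2 counts of B130024G19Rik in the iCM libraries cannot be ordered.

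**Figure D1:**
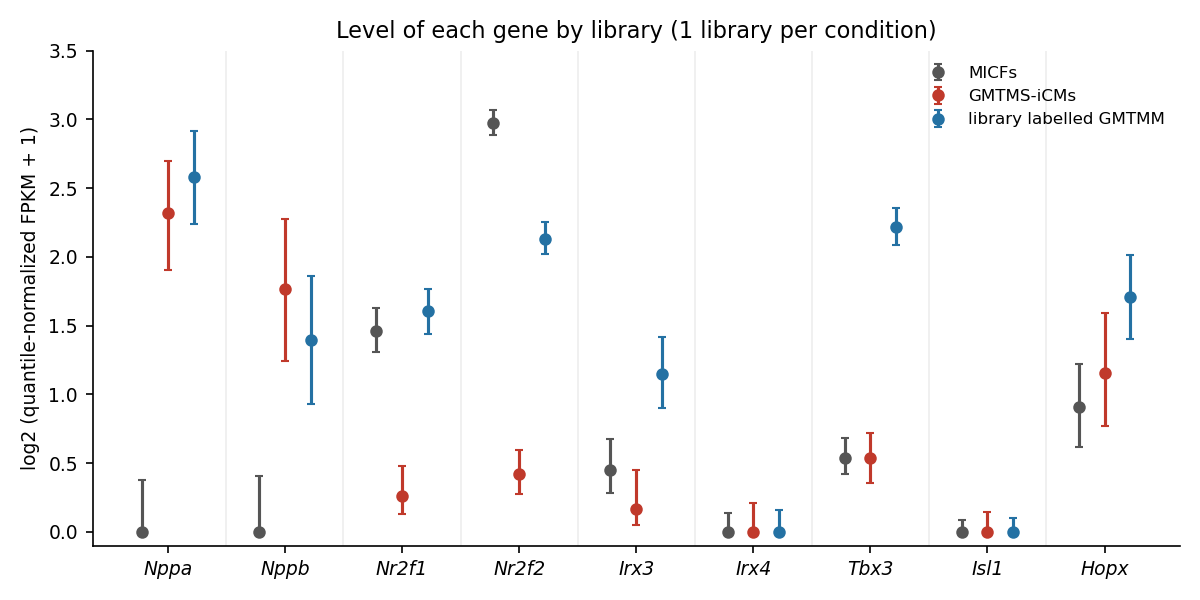
Level of each of the 9 genes as log2 (quantile-normalized FPKM + 1) in MICFs (grey), GMTMS-iCMs (red) and the library labelled GMTMM (blue), 1 library per condition, with bars for the exact 95% Poisson interval of the count. Nppa and Nppb sit at 0 in MICFs and at 1.39 to 2.58 in the iCM libraries, Nr2f2 stands at 2.98 in MICFs and 0.42 in GMTMS-iCMs, Tbx3 stands at 2.22 only in the library labelled GMTMM, and Irx4 and Isl1 sit at 0 in all 3.

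Irx3 (ENSMUSG00000031734, chromosome 8 from 91798525 to 91802067, minus strand) was low in all libraries. It had 15, 3 and 40 counts, an FPKM of 0.377, 0.117 and 1.24. The library labelled GMTMM was the highest, 3.28-fold MICFs (1.78 to 6.40). GMTMS-iCMs, with 3 counts, were 10.6-fold lower than the library labelled GMTMM (3.38 to 53.6) but did not differ from MICFs beyond counting error (ratio 0.310, 0.0575 to 1.10). Irx4 (ENSMUSG00000021604, chromosome 13 from 73260479 to 73269608, plus strand), the ventricular member of the family, was not counted in any library, and 3 counts would be an FPKM of 0.0800, 0.124 and 0.0985. Ventricular Irx4 RNA was therefore not detectable at this depth in either iCM library.

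Tbx3 was higher in the library labelled GMTMM than in both others. This repressor of working muscle genes (ENSMUSG00000018604, chromosome 5 from 119670669 to 119684724, plus strand) had 45, 25 and 293 counts. Its FPKM was 0.472, 0.406 and 3.79. The library labelled GMTMM was 8.02-fold higher than MICFs (5.85 to 11.2), and GMTMS-iCMs were 9.32-fold lower than the library labelled GMTMM (6.19 to 14.6). GMTMS-iCMs and MICFs could not be separated (ratio 0.861, 0.506 to 1.43). Relative to its close relative Tbx2, Tbx3 FPKM was 12.9%, 16.1% and 74.3%.

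In FPKM, epicardial markers were also highest in the library labelled GMTMM. On the log2 scale 1 of the 5 was higher there than in MICFs by over 1 (5.75% of all genes). None was lower by over 1, and the list median was 0.73. Aldh1a2 stood at 6.70 in MICFs and 6.64 in that library on this scale. Wt1, which marks epicardium and mesothelium, had 8, 6 and 128 counts, Msln 2, 0 and 24, and Upk1b 3, 0 and 15. The 5 markers summed to 77.0, 9.71 and 113.4 FPKM, mostly from Aldh1a2, and 2 of the 5 were at 0 in GMTMS-iCMs and none in the other libraries. Tbx3 FPKM was 5.26-fold, 3.90-fold and 2.14-fold that of Wt1. Their part in the Tbx3 and Irx3 differences was not tested.

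Isl1 (ENSMUSG00000042258, chromosome 13 from 116298281 to 116309689, minus strand) had 0 counts in all 3 libraries, which allows an FPKM of up to 0.0527, 0.0816 and 0.0649. Hopx (ENSMUSG00000059325, chromosome 5 from 77086988 to 77115121, minus strand) had 20, 16 and 41 counts, an FPKM of 0.917, 1.14 and 2.32. The library labelled GMTMM was 2.53-fold above MICFs (1.45 to 4.55) and GMTMS-iCMs were 2.04-fold below that library (1.12 to 3.89). GMTMS-iCMs and MICFs were not separated (ratio 1.24, 0.601 to 2.52). Hopx shares 27.2% of its exon bases with Hopxos on the opposite strand, which had 0 counts in every library, and Tbx3 and Irx3 share 1.74% and 4.49% with antisense partners that had at most 4 counts.

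**Figure D2:**
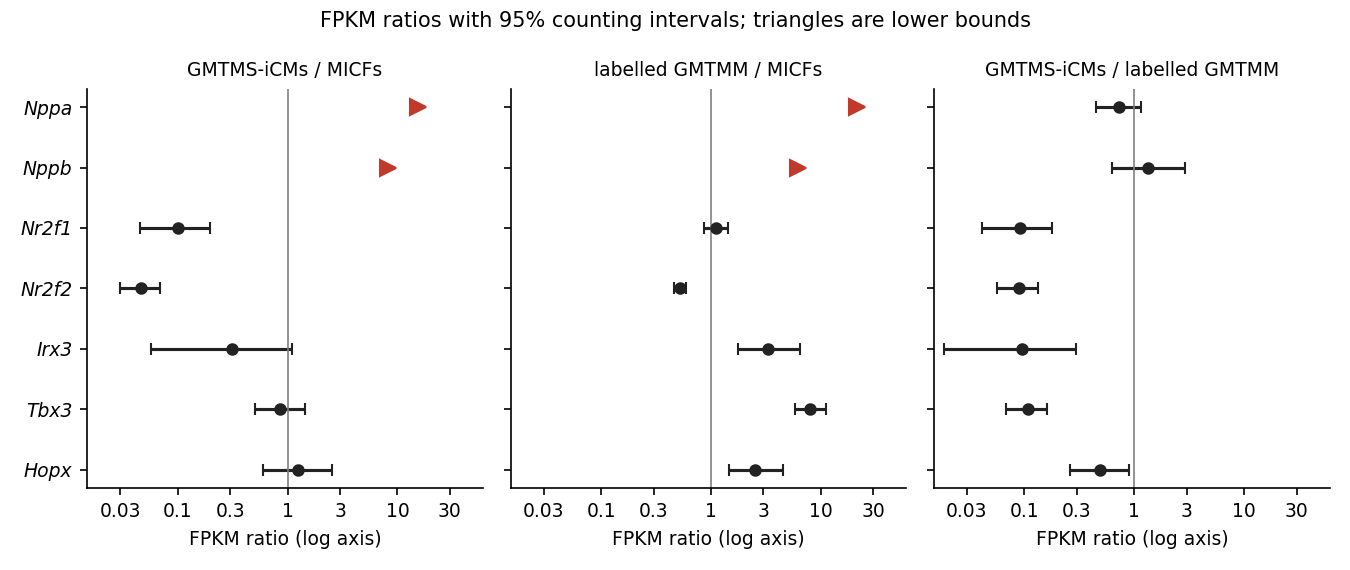
FPKM ratios (log axis) of the 7 measured genes for GMTMS-iCMs over MICFs, the library labelled GMTMM over MICFs and GMTMS-iCMs over the library labelled GMTMM, with exact 95% counting intervals and red triangles for lower bounds against a library at 0. Nr2f1 and Nr2f2 lie far left of 1 in the first and last panels, and Tbx3 lies at 8.02 in the middle panel.

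The order of the genes differed between libraries. In MICFs Nr2f2 (6.77 FPKM, exact Poisson interval 6.32 to 7.24) led Nr2f1 (1.58 to 2.22), and below them Hopx (0.560 to 1.42), Tbx3 (0.344 to 0.632) and Irx3 (0.211 to 0.623) overlapped each other. In GMTMS-iCMs Nppa (2.52 to 5.33) led, then Nppb (1.26 to 3.58) and Hopx (0.650 to 1.85), each overlapping its neighbour. Below them came Tbx3 (0.263 to 0.60), Nr2f2 (0.202 to 0.461), Nr2f1 (0.0870 to 0.361) and Irx3 (0.0241 to 0.342), again each overlapping its neighbour. In the library labelled GMTMM Nppa (3.84 to 6.75), Tbx3 (3.37 to 4.25) and Nr2f2 (3.16 to 3.90) overlapped at the top, and Hopx (1.66 to 3.14), Nr2f1 (1.73 to 2.49), Nppb (0.920 to 2.71) and Irx3 (0.886 to 1.69) followed, overlapping in part. Within GMTMS-iCMs the intervals of Nppa and Nppb lay above those of both nuclear receptors, whereas in MICFs the peptides were at 0.

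On the scale of the study, FPKM quantile-normalized over the 3 libraries and then log2 (value + 1), a difference over 1 was taken as higher or lower. In either direction 15.8% of all measured genes passed in GMTMS-iCMs against MICFs, 9.07% in the library labelled GMTMM against MICFs and 13.7% between the iCM libraries. In GMTMS-iCMs against MICFs, 2 of 7 were higher, Nppa by 2.32 and Nppb by 1.77, where 8.28% of all genes were. Another 2 were lower, Nr2f1 (-1.20) and Nr2f2 (-2.56), where 7.54% of all genes were. In the library labelled GMTMM against MICFs, 3 of 7 were higher (5.75% of all genes), Nppa by 2.58, Nppb by 1.39 and Tbx3 by 1.68, and 0 were lower (3.32%). Between the iCM libraries 3 of 7 were lower in GMTMS-iCMs (7.86%), Nr2f1 (-1.34), Nr2f2 (-1.71) and Tbx3 (-1.68), and 0 were higher (5.85%). The comparisons with MICFs share that library. A pseudocount of 1 shrinks differences of low genes, and Irx3 and Hopx stayed within 1 on this scale with differences of 0.70 and 0.80 of the library labelled GMTMM from MICFs, although their FPKM ratios were 3.28 and 2.53.

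The median difference of the 7 genes was -0.0015 and 0.80 from MICFs and -0.98 between the iCM libraries, where the medians of all measured genes were -0.04, -0.06 and 0.04. Counting intervals of the FPKM ratio left out 1 for 4, 6 and 5 of the 7, against 60.2%, 56.9% and 54.2% of all genes for which an interval could be made, so such intervals alone did not mark these genes out.

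**Figure D3:**
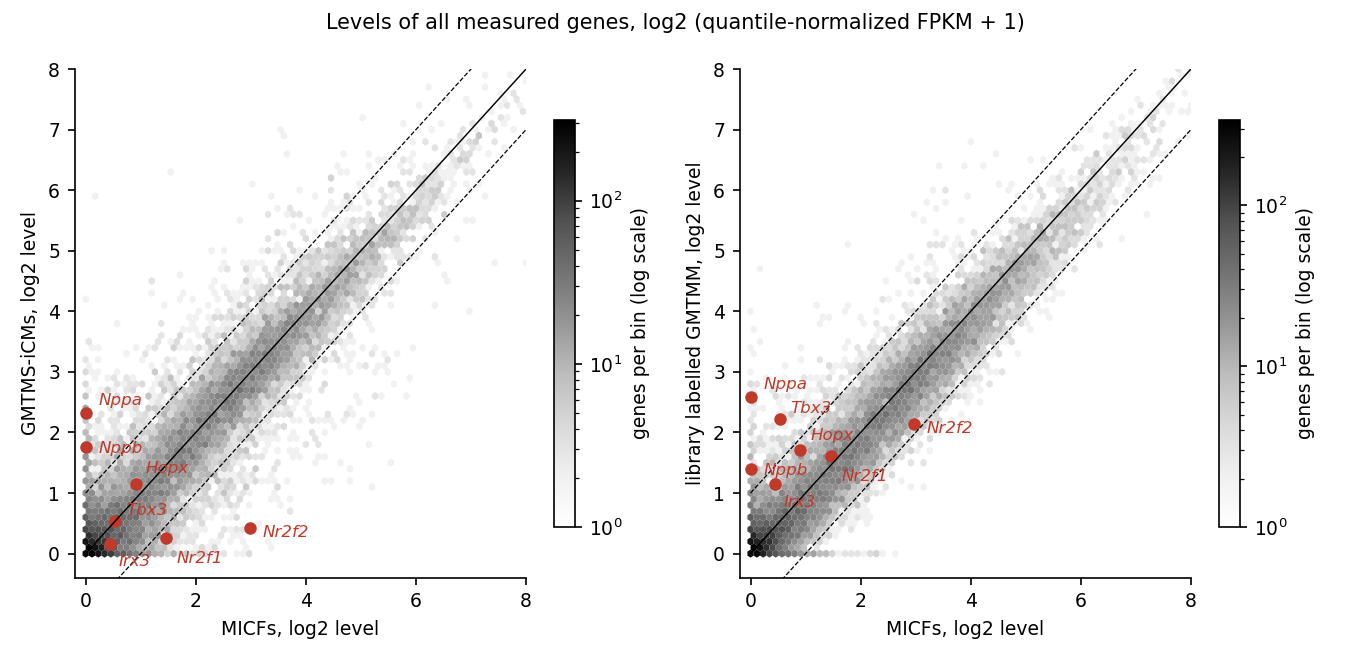
Levels of the 18707 measured genes, log2 (quantile-normalized FPKM + 1), in GMTMS-iCMs (left) and the library labelled GMTMM (right) against MICFs, with grey shade for the number of genes per bin, a line of equality, dashed lines at a difference of 1 and the 7 measured genes in red. Nppa and Nppb lie on the left axis in both panels, Nr2f2 lies far below the lower dashed line on the left at -2.56, and inside it on the right at -0.85.

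The rest of the natriuretic pathway lay on both sides of MICFs. In GMTMS-iCMs against MICFs, 2 of the 14 genes measured were higher by over 1 (8.28% of all genes). Another 5 were lower (7.54% of all genes), and the median was -0.65. Corin, the cardiomyocyte protease that cuts the atrial peptide precursor, had 4, 84 and 93 counts and was 32.5-fold higher in GMTMS-iCMs (12.2 to 122) and 28.6-fold higher in the library labelled GMTMM (10.8 to 107), with 4 counts behind the MICF value. Furin, which processes the brain peptide precursor, was already at 2282 counts in MICFs, with 4454 and 3130 in the iCM libraries, and was 3.02-fold higher in GMTMS-iCMs (2.87 to 3.18). Its FPKM ratio to MICFs in the library labelled GMTMM was 1.69 (1.60 to 1.78), a difference of 0.44 that did not pass 1.

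The 5 lower genes in GMTMS-iCMs were Npr1, Npr3, Pcsk6, Pde3a and Pde5a. Npr1, the guanylyl cyclase receptor of both peptides, had 389, 10 and 227 counts and was 25.1-fold lower than in MICFs (13.5 to 52.8). Npr3, the clearance receptor, had 338, 10 and 144 counts and was 21.8-fold lower (11.7 to 45.9). The proprotein convertase Pcsk6, which activates Corin, had 1255, 32 and 814 counts and was 25.3-fold lower (17.8 to 37.2). The phosphodiesterases Pde3a and Pde5a, which degrade cyclic nucleotides, were 3.08-fold (2.62 to 3.64) and 6.52-fold lower (4.45 to 9.91). Pde9a (ratio 0.868, 0.417 to 1.73) and Pde2a (ratio 3.10, 0.662 to 19.1) were not separated from MICFs. Endothelial, fibroblast and pericyte markers were lower in the same library, as given with the nuclear receptors, and their part was not tested. In the library labelled GMTMM 1 of the 14 pathway genes was higher, Corin (5.75% of all genes), and 0 were lower (3.32%), with a median of 0.24. Between the iCM libraries 0 were higher (5.85% of all genes) and 7 lower (7.86%) in GMTMS-iCMs, with a median of -0.91.

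Atrial genes lay on both sides of MICFs. In GMTMS-iCMs against MICFs 5 of 10 measured were higher (8.28% of all genes) and 3 lower (7.54%), with a median of 0.86. The atrial light chains led: Myl7 had 0, 3507 and 1708 counts and was higher by 9.05 on the log2 scale, and Myl4 had 24, 2006 and 1338 and was 129-fold higher (86.8 to 203). Kcnj5, a subunit of the acetylcholine-gated potassium channel, had 23, 562 and 310 counts and was 37.9-fold higher (25.0 to 60.2), and Sln, the atrial inhibitor of the calcium pump, had 0, 22 and 8. The other higher gene was Stard10, a lipid transfer protein, with 51, 150 and 215 counts. Nppa stood at 0.583% and 2.08% of Myl7 FPKM in the iCM libraries. The lower genes were Gja5, the connexin of atrial muscle and arterial endothelium, with 567, 1 and 31 counts, Dkk3, a secreted glycoprotein that fibroblasts also make, with 1607, 286 and 2081, and Kcna5, an atrial potassium channel, with 87, 4 and 30. In the library labelled GMTMM 4 of 10 were higher (5.75% of all genes) and 1 lower (3.32%), with a median of 0.60.

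Ventricular genes were few and low. Of 9 listed, 6 were measured, and 2 were higher in GMTMS-iCMs (8.28% of all genes), with a list median of 0.15. In the library labelled GMTMM 1 was higher (5.75% of all genes), with a list median of 0.28. Myl3, a light chain of ventricular and slow muscle, had 0, 54 and 40 counts, and Myh7, the slow myosin heavy chain, had 0, 83 and 29. Myl2, the defining ventricular light chain, had 0, 1 and 3 counts and Pln, the phospholamban gene, 0, 2 and 0, both at or below the limit of 3. Irx5, the Iroquois gene next to Irx3 in its cluster, had 15, 0 and 11. In the iCM libraries the atrial light chains had 1338 to 3507 counts, but the atrial genes Gja5 and Kcna5 had 1 to 31, below MICFs. Of the ventricular genes, Myl3 and Myh7 had 29 to 83 counts and were at 0 in MICFs, while Myl2 had at most 3 and Irx4 had 0. The genes of neither list moved together.

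Conduction genes gave a single large difference. Of 12 measured, 1 was higher and 1 lower in GMTMS-iCMs (median -0.25), near the shares of all genes (8.28% and 7.54%). In the library labelled GMTMM 1 was higher (5.75% of all genes) and 0 lower (3.32%), with a median of 0.02. Hcn4, the pacemaker channel, had 0, 798 and 490 counts. With the 0 set to 3 counts it was 412-fold and 201-fold higher than in MICFs, and the exact intervals began at 334 and 163. Tbx18, a sinus node and epicardial factor, had 251, 50 and 213 counts and was 3.24-fold lower in GMTMS-iCMs (2.38 to 4.48). Shox2, which maintains the sinus node, had 59, 31 and 25 counts and differed by -0.05 and -0.42. In GMTMS-iCMs Tbx3 was not separated from MICFs and Isl1 was at 0. Any link of Hcn4 to these genes was not tested.

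Second heart field genes and relatives of the members lay mostly on the lower side in GMTMS-iCMs. Of 7 measured second heart field genes, 4 were lower (7.54% of all genes) and 0 higher (8.28%), with a median of -1.17. Among the lower were Hand2 with 151, 25 and 114 counts and Osr1 with 84, 6 and 36. In the library labelled GMTMM 0 were lower (3.32% of all genes) and 1 was higher (5.75%). That was Wnt11, an outflow tract ligand, with 19, 9 and 85 counts and 5.51-fold MICFs (3.32 to 9.60). Of 9 measured family relatives 2 were lower in GMTMS-iCMs (7.54% of all genes), Tbx18 and Tbx20, a cardiac T-box factor with 5005, 979 and 4251 counts. In the library labelled GMTMM 0 passed in either direction (9.07% of all genes). The medians of the relatives were -0.28 and -0.05. Both lists hold genes that fibroblasts express.

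Genes that are induced with the peptides in stressed muscle were higher in GMTMS-iCMs in 4 of 7 cases (8.28% of all genes). In 1 case they were lower (7.54% of all genes), and the median was 1.09. Acta1, skeletal actin, had 2, 1467 and 666 counts and Rcan1, a target and inhibitor of calcineurin, 832, 3219 and 1909, which was 5.99-fold (5.55 to 6.48) and 2.83-fold MICFs (2.60 to 3.07). Ankrd1, a stretch-responsive repeat protein, was 3.45-fold higher in GMTMS-iCMs (3.14 to 3.8), and Ctgf, a matricellular growth factor, was 1.66-fold lower in FPKM (1.53 to 1.81) and lower by over 1 only after quantile normalization (-1.18). Against MICFs the library labelled GMTMM had 2 of 7 higher, Acta1 and Rcan1 (5.75% of all genes), and 0 lower (3.32%), with a median of 0.35.

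**Figure D4:**
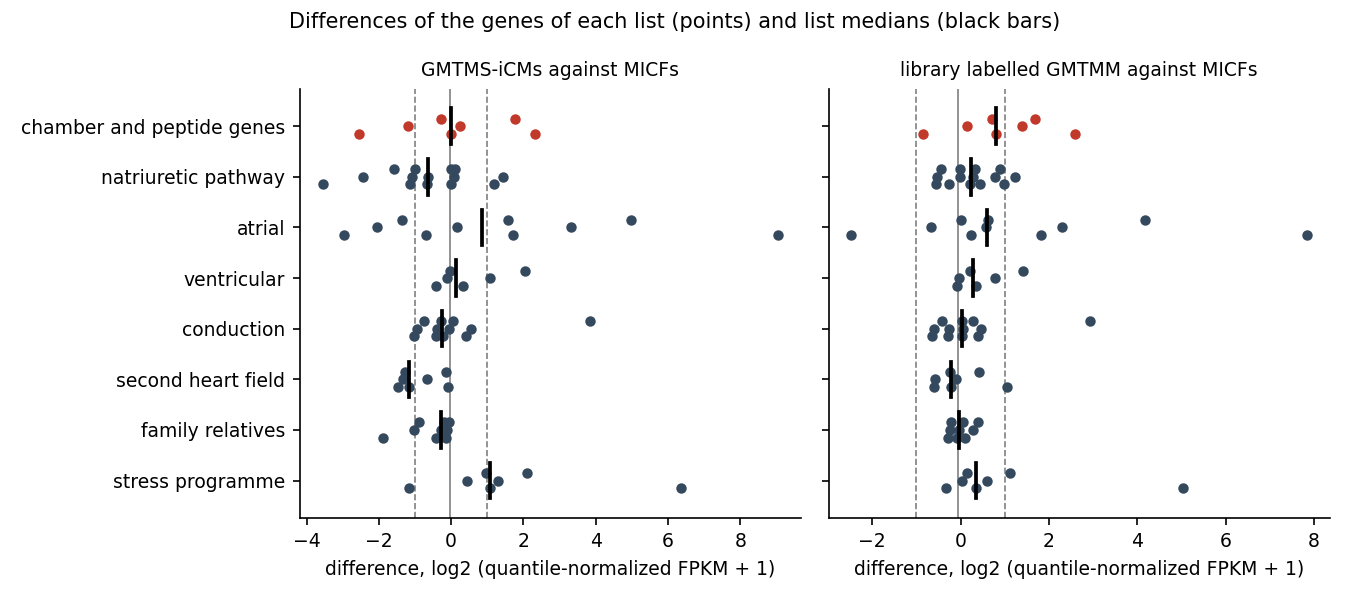
Differences from MICFs of each measured gene (points) in the chamber and peptide genes (red) and 7 related gene lists (blue), on the log2 (quantile-normalized FPKM + 1) scale, for GMTMS-iCMs (left) and the library labelled GMTMM (right), with black bars for list medians, a solid line at the median of all genes and dashed lines at a difference of 1 in each direction. The second heart field median lies at -1.17 on the left and -0.22 on the right, and the stress programme at 1.09 and 0.35.

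The genes nearest to Nppa and Nr2f2 were taken as the 3 with the smallest distance in the pair of differences from MICFs, among 15450 genes with over 10 counts in a library. For Nppa these were Nptx2 (3, 97 and 173 counts, distance 0.0426), Sphk1, a sphingosine kinase (318, 1266 and 1851, distance 0.0617), and the pseudogene Gm11874 (3, 13 and 22, distance 0.101). For Nr2f2 they were Cgnl1, a junction protein (2333, 217 and 1265, distance 0.0266), Ccnd2, a cyclin (3119, 322 and 1731, distance 0.0475), and Clca2 (448, 12 and 178, distance 0.0677). The measure rests on 3 libraries and describes only the likeness of these values.

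**Figure D5:**
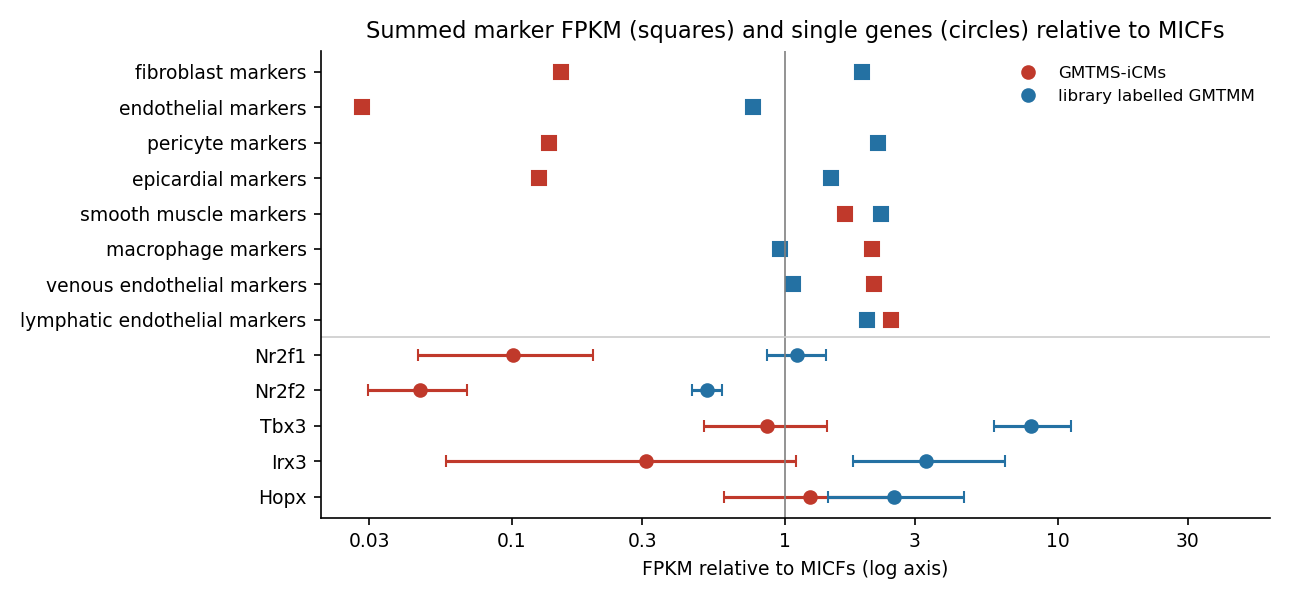
Summed FPKM of 8 marker lists (squares) and FPKM of Nr2f1, Nr2f2, Tbx3, Irx3 and Hopx (circles, with exact 95% counting intervals) relative to MICFs, on a log axis, for GMTMS-iCMs (red) and the library labelled GMTMM (blue). In GMTMS-iCMs the endothelial sum lies at 0.0281 and the fibroblast sum at 0.152 of MICFs, with Nr2f1 and Nr2f2 also left of 1. In the library labelled GMTMM the smooth muscle, pericyte and lymphatic endothelial sums lie at 2.25, 2.20 and 2.00. The fibroblast and epicardial sums lie at 1.92 and 1.47 there, and Tbx3 lies further right at 8.02.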

How the data were processed

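RNA was sequenced as paired reads of 150 bases from 3 libraries, 1 per condition. The authors deposited raw counts per gene and FPKM per gene. Submitters' notes name HISAT2 2.0.5 and mm9, but the deposited gene coordinates are those of GRCm38 (98.3% of 54409 identifiers match GENCODE M21), and the counting tool and strand use are not given in the sources used here. The deposited FPKM imply library sizes of 1.44e+07, 9.29e+06 and 1.17e+07 beside the counts. DESeq2 size factors computed from the counts for the re-analysis were 1.26, 0.811 and 1.02, in the same proportion as these sizes. The alternative with these factors therefore leaves out gene length and quantile normalization but keeps the library scaling of the FPKM. FPKM were quantile-normalized over the 3 libraries and taken as log2 (value + 1), and a difference over 1 was called. Ratios are of deposited FPKM with exact 95% intervals on counts, and a count of 0 was set to 3 counts. PCR copies are not told apart, so intervals cover counting error only.

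Members and lists were chosen with earlier results of these data known. The genes named are the members, those of the fixed lists (first those past a difference of 1 in GMTMS-iCMs with over 10 counts in the higher library), overlapping genes, delivered factors, markers, and the 3 nearest genes of 2 members. The column of MICFs bears another abbreviation and was assigned by elimination. Alternatives were other scales (edgeR 4.0.16 TMM, counts over DESeq2 1.42.0 size factors), orders, pseudocounts, filters and thresholds. The steps were tested on simulated data. R 4.3.3 and Python 3.11.15 with SciPy 1.17.1 and pandas 2.3.3 were used. Promoter sequences are those of RefSeq for GRCm38.p6. Values of some list genes are not reported here.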

Additional observations from a re-analysis of the deposited data

Results flagged for a closer look

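No member moved opposite ways in the iCM libraries, but 11 genes of the related lists did: 1 iCM library lay above MICFs and the other below, on the log2 scale and beyond counting error of the FPKM ratio. With 1 library per condition the difference between cocktails was not tested. In the natriuretic pathway the values of GMTMS-iCMs minus the library labelled GMTMM were -1.56 for Nppc, the C-type peptide, -1.28 for its receptor Npr2, -2.08 for Pde3a and -1.45 for Pde5a. Among atrial genes they were -2.30 for Dkk3 and -1.32 for Pam, an amidating enzyme. Among conduction genes they were 1.16 for Cacna1d, -0.69 for Cacna1g, -1.22 for Gjc1 and -0.66 for Tbx2, and Fgf10, a second heart field ligand, gave -1.10. Cacna1d, a calcium channel of the sinus node with 380, 363 and 143 counts, was the only 1 of the 11 with a higher FPKM in GMTMS-iCMs than in MICFs. That FPKM ratio was 1.48 (1.28 to 1.71) and rests on the library scaling, since the raw count was not higher.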

How the results depend on the processing

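No called difference reversed under any alternative. Of 133 differences of members under the alternatives, 87 stayed within their counting interval and 46 left it. Nppa and Nppb in both iCM libraries against MICFs, Nr2f1 and Nr2f2 in GMTMS-iCMs against both others, and Tbx3 in the library labelled GMTMM against both others differed by over 1 under every alternative scaling, order, pseudocount and filter run. Irx3 passed 1 in 3 of 7 alternatives (GMTMS-iCMs against MICFs), 3 of 6 (library labelled GMTMM against MICFs) and 4 of 6 (between iCM libraries), Hopx in 3 of 6 and Nr2f2 in 1 of 6 for the library labelled GMTMM against MICFs, and Hopx in 1 of 6 between iCM libraries. Tbx3 in GMTMS-iCMs against MICFs, never past 1, ranged from -0.29 to 0.02.

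Counts of calls are given for GMTMS-iCMs against MICFs, the library labelled GMTMM against MICFs and GMTMS-iCMs against the library labelled GMTMM. As reported they were 4, 3 and 3 members, 2960, 1697 and 2566 genes in all and 28, 11 and 19 pathway genes. With a pseudocount of 0.1 the genes in all were 6352, 4824 and 5604, members in the second comparison 6 (83.3% higher) and pathway genes in the second and the last 24 and 37. With TMM log2 CPM they were 6983, 5256 and 6045, with 5 members in the second and 5 in the last, and 47, 28 and 41 pathway genes. With DESeq2 size factors they were 7454, 5606 and 6559, with 5 members in the second, and 48, 28 and 44 pathway genes. With a difference over 2 they were 946, 386 and 557, with 2, 1 and 0 members and 11, 6 and 3 pathway genes. The share of calls that were higher in the second comparison moved from 63.4% of genes in all to 52.5% with a pseudocount of 0.1, and from 90.9% of pathway genes to 75.0% with it and 71.4% with TMM or DESeq2 factors. For genes in all of the second comparison that share rose to 72.4% without quantile normalization and to 85.2% at a difference over 2. Pathway calls in the last comparison went from 21.1% to 31.8% higher with DESeq2 factors. Genes in all of the last comparison went from 42.7% to 8.26% higher at a difference over 2. The causes were not tested. The added alternative, quantile normalization over MICFs and GMTMS-iCMs alone, was chosen after seeing the data and kept the counts at 4, 2919 and 28.

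No paired analysis was possible because there is a single library of each kind, and for the same reason no replicate was left out. Counts of 0 to 52 for Nppa, Nppb, Irx3 and Hopx limit their precision.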

Other observations

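Marker lists that stand beside no result above also differed between the libraries. Smooth muscle markers summed to 1.66-fold MICFs in GMTMS-iCMs and 2.25-fold in the library labelled GMTMM, with 2 of 5 higher by over 1 in each, Myh11, the smooth muscle myosin heavy chain (1867, 4947 and 4530 counts), and Cnn1, calponin (213, 402 and 415), while Smtn, smoothelin, was lower in GMTMS-iCMs (1919, 196 and 1076). Among 4 lymphatic endothelial markers Pdpn alone was higher by over 1, in both iCM libraries (451, 1373 and 1290 counts). Lyve1 (377, 100 and 92) was lower by over 1 in both and Flt4 (918, 28 and 580) in GMTMS-iCMs. Prox1, the defining factor, had 127, 30 and 39 and passed 1 in neither. Of 3 measured epithelial markers, Krt18, a keratin, was higher by over 1 in both (8, 100 and 140 counts), and Epcam had at most 1 count. Cd14, a monocyte receptor for bacterial lipopolysaccharide, had 2219, 20292 and 11593 counts, while Csf1r, the macrophage growth factor receptor, had 21572, 26876 and 12838. These are values of 1 library each.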
